A study of Arabidopsis thaliana with 4 samples.

Results

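The 45 genes described here encode subunits of the 26S proteasome of Arabidopsis thaliana and were taken, by locus identifier, from the 33187 identifiers of the deposited expression table. They comprise 24 genes of the 20S core, 10 RPT ATPase genes and 11 RPN genes. The list is one of named subunits; no threshold on a value entered it, but the subunits were selected on prior sight of the TPM of these 4 libraries and of their genotype difference, so differences between genotypes are given as a description and support nothing beyond it. Whole developing seeds, 7 days post anthesis and with embryos at the torpedo to linear stage, were collected from wild-type plants and an erf4 mutant that carries the insertion SALK_073394 (erf4_2 in the sample titles), with 2 libraries per genotype and no other treatment. Whether both libraries of a group are separate plants is not stated in the labels, so the spread between them may be technical.

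The 26S proteasome degrades proteins that carry ubiquitin chains. Its 20S core is a barrel of stacked rings, with an outer ring of alpha subunits (PAA to PAG) that gates the entry and an inner ring of beta subunits (PBA to PBG), of which PBA, PBB and PBE carry the peptidase sites. A regulatory particle caps the barrel: a ring of RPT ATPases unfolds the substrate, and the RPN subunits of its base and lid bind ubiquitin chains and, through RPN11, cut them off. Many subunits of Arabidopsis are encoded by a pair of paralogous genes, here called copies and numbered 1 and 2 or lettered A and B. Proteasome genes of plants are known to be induced together when proteasome capacity falls short, through the transcription factors NAC053 and NAC078.

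Values are TPM, a level per transcript length that sums to the same total in each library and allows levels of different genes to be set side by side. The depth of the libraries is unknown. In each library 20295 to 20630 genes reached 1 TPM. ERF4 encodes a transcriptional repressor of the ethylene response factor family. Its transcript (AT3G15210) stood at 38.0 and 33.0 TPM in wild-type seeds and at 34.6 and 41.3 TPM in erf4 seeds, so this level does not check the genotype labels. Seed tissue markers were present: BAN and STK of the seed coat, LEC1 and FUS3 of the embryo and EPR1 of the endosperm had mean levels of 349, 119, 94.9, 124 and 1033 TPM. The endosperm genes PHE1, FWA and FIS2 had 1.81 to 4.71 TPM. None of these markers was called. The 4 seed coat genes (BAN, STK, PRX36 and SBT1.7) summed to 929 and 839 TPM in wild-type seeds against 1738 and 1376 in erf4 (3 above the wild-type range). Summed levels of 4 embryo genes were 3699 and 3218 TPM against 2604 and 684 (3 below, LEC1 above). Of these, CRA1 alone had 3283 and 2750 TPM against 2311 and 309. For 4 endosperm genes the sums were 1537 and 1194 TPM against 793 and 648 (EPR1 below, 3 above). EPR1 alone had 1530 and 1189 TPM against 779 and 633, so this sum does not show the other 3 genes. Summed over 6 silique wall and leaf markers, levels were 1251 and 788 TPM in wild-type seeds against 1679 and 1461 TPM in erf4. Of the 6, 5 were above the wild-type range, 1 was below it and none was at 0. Over the 20804 genes with at least 1 TPM in at least 2 of the 4 libraries, 21.5% were above this range and 12.2% below. The part of the markers in the results below was not tested.

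Promoter sequence is shown for 5 of the genes, to set the copy pair with the most unequal levels (PAC1 and PAC2) beside a strongly expressed gene (PBA1), the base scaffold gene RPN1A, which has many matches to the motif searched, and RPT6B, which has none. In plants, NAC053 and NAC078 are known to bind an element with the core TGGGC upstream of proteasome genes. Windows were read from RefSeq TAIR10.1 by locus identifier and cover the 250 bases before the annotated gene start, 5′ to 3′ on the strand of the gene. The build behind the expression values is not given in the sources used here. Capitals mark each TGGGC or its reverse complement GCCCA. None of the 5 windows overlaps another annotated gene. They lie at chr3:7794263-7794512, minus strand (PAC1), chr4:8648582-8648831, plus strand (PAC2), chr4:15188494-15188743, plus strand (PBA1), chr2:8858712-8858961, plus strand (RPN1A) and chr5:6756383-6756632, plus strand (RPT6B).
PAC1: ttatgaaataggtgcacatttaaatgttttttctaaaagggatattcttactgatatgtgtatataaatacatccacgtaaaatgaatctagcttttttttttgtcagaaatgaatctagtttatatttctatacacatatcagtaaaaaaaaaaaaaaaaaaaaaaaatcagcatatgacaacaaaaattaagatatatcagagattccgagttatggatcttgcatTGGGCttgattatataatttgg
PAC2: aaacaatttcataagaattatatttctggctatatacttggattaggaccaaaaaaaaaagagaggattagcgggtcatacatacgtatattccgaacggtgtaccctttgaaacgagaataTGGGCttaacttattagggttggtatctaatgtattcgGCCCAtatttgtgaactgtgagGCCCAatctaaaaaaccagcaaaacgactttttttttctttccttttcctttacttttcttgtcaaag
PBA1: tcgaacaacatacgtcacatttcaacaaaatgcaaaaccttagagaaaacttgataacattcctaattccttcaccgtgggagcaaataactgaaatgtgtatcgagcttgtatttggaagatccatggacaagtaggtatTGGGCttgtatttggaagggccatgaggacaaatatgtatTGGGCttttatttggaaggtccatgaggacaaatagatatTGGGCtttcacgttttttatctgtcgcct
RPN1A: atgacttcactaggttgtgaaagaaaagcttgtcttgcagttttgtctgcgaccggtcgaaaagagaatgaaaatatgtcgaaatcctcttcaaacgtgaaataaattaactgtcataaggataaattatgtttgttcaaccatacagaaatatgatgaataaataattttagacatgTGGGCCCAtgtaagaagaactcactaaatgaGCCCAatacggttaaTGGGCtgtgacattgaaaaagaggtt
RPT6B: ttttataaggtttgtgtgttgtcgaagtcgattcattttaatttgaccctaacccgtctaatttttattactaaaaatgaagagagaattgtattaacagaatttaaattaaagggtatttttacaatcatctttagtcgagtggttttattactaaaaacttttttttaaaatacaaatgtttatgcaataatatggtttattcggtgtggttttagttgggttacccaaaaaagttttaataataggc

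TGGGC, on either strand, was found in 26 of the 45 promoters (57.8%) in a window from 250 bases before to 50 after the start, against 26.0% (7132) of the 27443 nuclear protein-coding genes. This background was not matched for level. By class the count was 7 of 13 for alpha subunits, 9 of 11 for beta subunits, 5 of 10 for RPT genes and 5 of 11 for RPN genes. On lists described below, it was 7 of 9 for further subunit genes and 5 of 10 for COP9 signalosome genes. The longer site II motif TGGGCC, which contains TGGGC, was found in 19 members (42.2%, against 15.5%), and the telo box AAACCCTA in 2 (4.44%, against 6.22%). In the 250 bases before the start alone, 20 members held TGGGC and 15 of them held it more than once, counting overlapping matches on opposite strands. There it was held by 7 of 9 further subunit genes, 2 of 10 COP9 signalosome genes and 22.7% of all protein-coding genes. RPN1A and RPN8A had 4 matches each. Of the 45 windows before the start, 25 overlapped no other annotated gene. PAC2 had 3 matches with a mean level of 1.72 TPM, whereas PAC1 had 1 match with 135 TPM, and RPT6B had none with 41.7 TPM. A match is a run of letters and not evidence of binding.

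All 45 genes were detected, and 44 of them were abundant. Their mean levels over the 4 libraries ran from 25.3 to 190 TPM apart from PAC2, with a median of 89.98 TPM over the 45, against a median of 15.5 TPM over the 20804 genes tested (at least 1 TPM in at least 2 of the 4 libraries). More than 90% of tested genes had a lower level than each of 24 members. All members together made up 0.387% and 0.351% of the TPM of the wild-type libraries and 0.424% and 0.406% of the erf4 libraries. Levels also differed little between libraries: the highest library was a median of 1.23 times the lowest over the members and 1.41 times over all tested genes. The members are more abundant than most tested genes, so these ratios are not matched for level. Lists described below were near the members, at 1.258 for COP9 signalosome genes, 1.265 for further subunit genes and 1.292 for ubiquitin delivery genes. Genes of regulation and assembly were at 1.42. PAB1 and PAF1 varied least, by 1.08 times each, and RPN6 most, by 1.53 times.

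**Figure D1:**
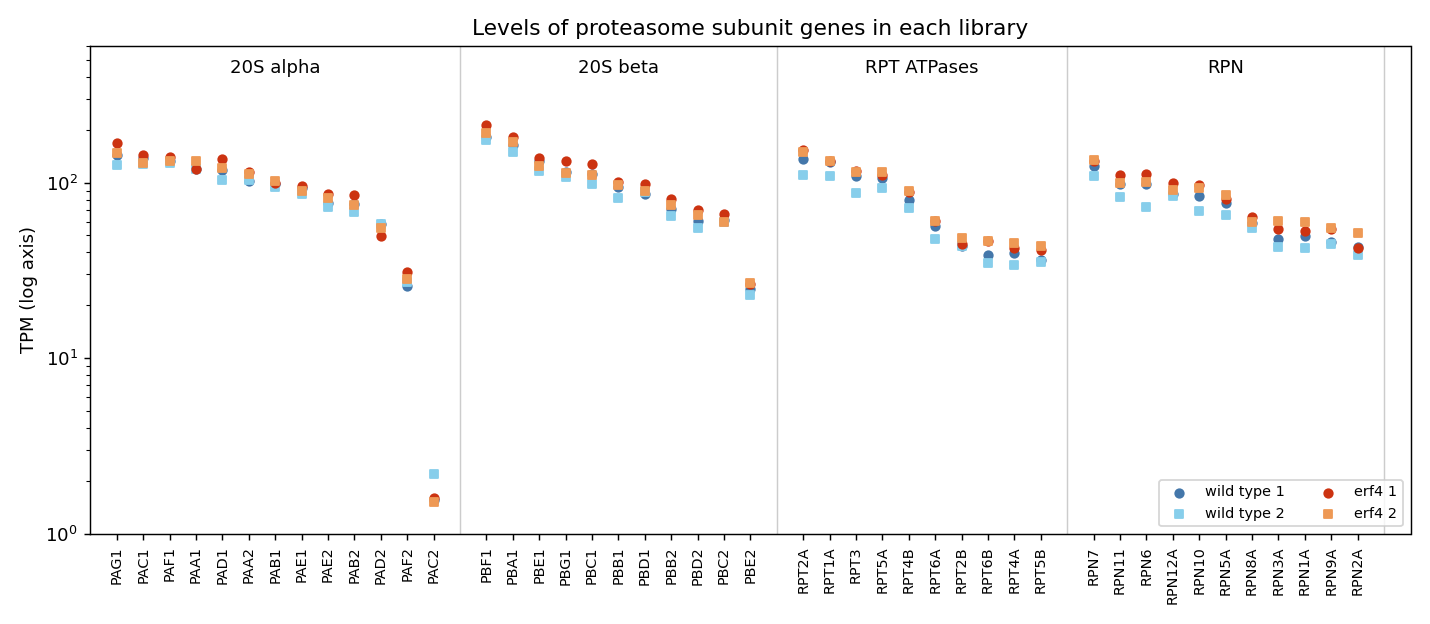
TPM on a log axis of each of the 45 genes in the 4 libraries, by class and ordered by mean level. All genes but PAC2 sit between 22.9 and 213 TPM, and the wild type 2 library (light blue squares) is the lowest for 37 of the 45.

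Alpha subunit genes shape the gate of the core. PAG1, the only gene of its subunit and the highest of the class, had 144 and 126 TPM in wild-type seeds and 167 and 147 TPM in erf4. PAC1 had 138 and 127 TPM against 143 and 130. PAC2 (AT4G15165), annotated with PAC1 as its best match, had 1.56 and 2.18 TPM against 1.60 and 1.52. Both genotypes overlap for PAC1 and PAC2, and PAC2 was the lowest member in every library.

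Beta subunit genes include those of the peptidase subunits. PBF1, a beta subunit without a peptidase site, was the highest of all 45 with 182 and 176 TPM in wild-type seeds and 213 and 192 TPM in erf4. PBE2 (AT3G26340), the copy of the chymotrypsin-like PBE1, was the lowest of the class with 24.8 and 22.9 TPM against 26.5 and 26.9. PBD2 had 60.1 and 55.1 TPM against 69.4 and 65.1, and PBC2 had 61.4 and 59.5 TPM against 66.0 and 59.3. Only PBC2 among these 4 had overlapping genotypes.

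RPT genes encode the unfolding ring. RPT2A, whose yeast counterpart takes part in opening the gate, was the highest with 136 and 111 TPM in wild-type seeds and 153 and 148 TPM in erf4, and its copy RPT2B had 43.4 and 43.6 TPM against 44.9 and 48.0. RPT5B was the lowest with 36.3 and 35.3 TPM against 41.4 and 43.3. RPT6B (AT5G20000) had 38.8 and 35.0 TPM against 46.7 and 46.3. In each of these genes both erf4 libraries lay above both wild-type libraries.

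RPN genes encode the scaffold, ubiquitin receptor and lid subunits. RPN7, a lid subunit, was the highest with 124 and 109 TPM in wild-type seeds and 133 and 134 TPM in erf4, and RPN2A, a base scaffold subunit, was the lowest with 42.9 and 38.9 TPM against 42.4 and 51.6. The lid gene RPN3A had 47.7 and 43.0 TPM against 54.3 and 60.5, and RPN8A, the partner of the deubiquitinase RPN11 in the lid, had 58.9 and 55.3 TPM against 63.7 and 59.7. Genotypes overlapped for RPN2A and were apart for the other 3 genes, by less than 1 TPM for RPN8A between wild type 1 and erf4 2.

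Summing the copies of each core subunit gave levels that lay closer together than those of the single genes. Over the 14 positions of the core, sums had a median of 166 TPM and ran from 117 TPM (PBG, with 1 gene) to 231 TPM (PAA), a range of 1.97-fold, whereas the 24 core genes ran from 1.72 to 190 TPM. Alpha and beta positions were alike, with medians of 170 and 166 TPM. RPT positions were lower, with a median of 125 TPM, and RPN positions lower again, with 76.9 TPM. Not all second copies are among the 45. With 8 further copies added (RPT1B, RPN1B, RPN2B, RPN3B, RPN5B, RPN8B, RPN9B and RPN12B), the median was 134 TPM for RPT and 85.6 TPM for RPN positions, and the range within RPN positions narrowed from 2.84-fold to 1.95-fold while that within RPT positions widened from 1.86-fold to 2.21-fold. Among the added copies, only RPT1B falls at an RPT position. Its coding sequence (1863 bases, against 1281 for RPT1A) was 61.2% identical to that of RPT1A, the lowest identity of the pairs examined. RPN7, with 1 gene on the lists used, stayed the highest RPN position at 125 TPM.

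**Figure D2:**
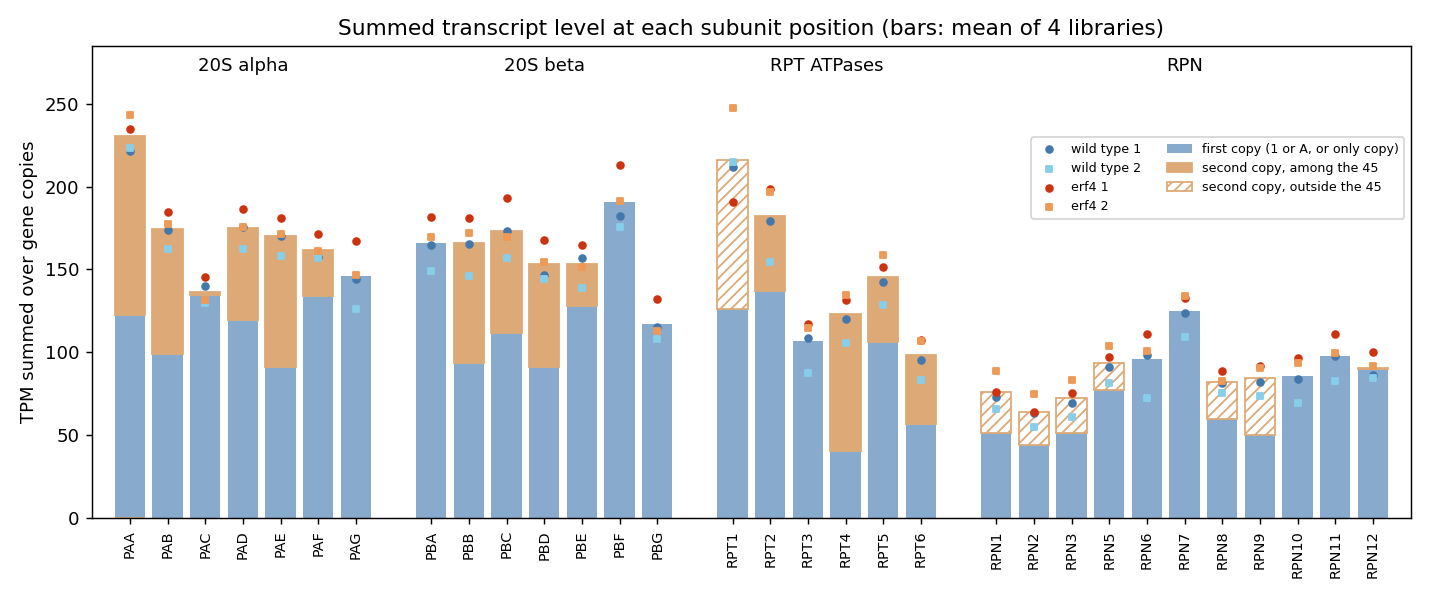
TPM summed over the gene copies of each subunit, as the mean of 4 libraries (bars, split by copy) and for each library (points). Core positions lie between 117 and 231 TPM and RPN positions between 64.1 and 125 TPM, also where 1 copy contributes little, as at PAC and RPN12.

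The share of each copy was steady between libraries. In 13 of the 14 pairs with both copies among the 45, the second copy was the lower one in all libraries; the exception was RPT4B (AT1G45000), which held 66.4% to 67.8% of the RPT4 sum. Near-equal pairs were PAA2 (mean share 46.8%), PAE2 (46.5%), PBB2 (43.8%) and PAB2 (43.4%). Uneven ones were PAC2 (1.27%), PBE2 (16.5%), PAF2 (17.3%) and RPT2B (24.9%). Over the 14 pairs, the share moved by a median of 2.69 percentage points between the lowest and the highest library. PAD moved most, by 9.29 points: PAD2 held 33.1% and 36.0% of the sum in the wild type and 26.7% and 31.4% in erf4. PAD1 had 118 and 104 TPM against 137 and 120, while PAD2 had 58.0 and 58.4 TPM against 49.8 and 55.0, the 1 member lower in both erf4 libraries than in either wild-type library.

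Reads of similar copies may have been split with error, so single values within pairs are uncertain. Identity of the coding sequences in TAIR10.1 had a median of 86.5% over the 14 pairs. Among these 14 it was lowest for PAC1 and PAC2, at 70.4%, and highest for RPT6A and RPT6B, at 94.4%, with an identical run of 104 bases. RPT6A and RPT6B are neighbours on chromosome 5 with no annotated gene between them.

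Between genotypes, differences were small, in 1 direction for nearly all members, and not past the threshold of the test. In whole seeds, a change in the share of a tissue and a change in its RNA per cell cannot be told apart. The fit was made with limma on log2(TPM + 1) over all 20804 tested genes, with Benjamini-Hochberg adjustment. It called no gene at an adjusted p under 0.05, members included (0% called; 1452 genes and none of the members had an unadjusted p under 0.05). When replicate number was added to the model, limma called 5.21% of tested genes and again no member. The smallest limma adjusted p of a member was 0.775, for RPT6B, and the 95% confidence intervals of all 45 log2 fold changes included 0. Log2 fold changes from wild type to erf4 were positive in 43 members, against 55.9% of all tested genes. Their median was 0.17, with a range from -0.16 (PAC2) to 0.33 (RPN3A), against a median of 0.03 over all tested genes.

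Both erf4 libraries lay above both wild-type libraries in 34 members, against 21.5% of tested genes, and below them in 1 (PAD2), against 12.2%. This count depended on the scaling of the libraries. After rescaling the TPM to equal medians of gene ratios, 10 members lay above the wild-type range, against 18.4% of tested genes, and 1 below. Those 10 were RPT4A, RPT4B, RPT5B, RPT6B, RPN1A, RPN2A, RPN3A, RPN5A, RPN9A and RPN10, with no core gene among them. As a share of all members they are close to the 18.4% of tested genes, and their split by class was not tested. Some margins were small: rescaled levels in wild type 1 and erf4 2 were 83.98 and 85.24 TPM for RPN10. They were 76.68 and 77.93 TPM for RPN5A, and further apart for RPN3A, at 47.95 and 55.27 TPM. The median log2 fold change was 0.14 after rescaling, and 43 members stayed positive.

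**Figure D3:**
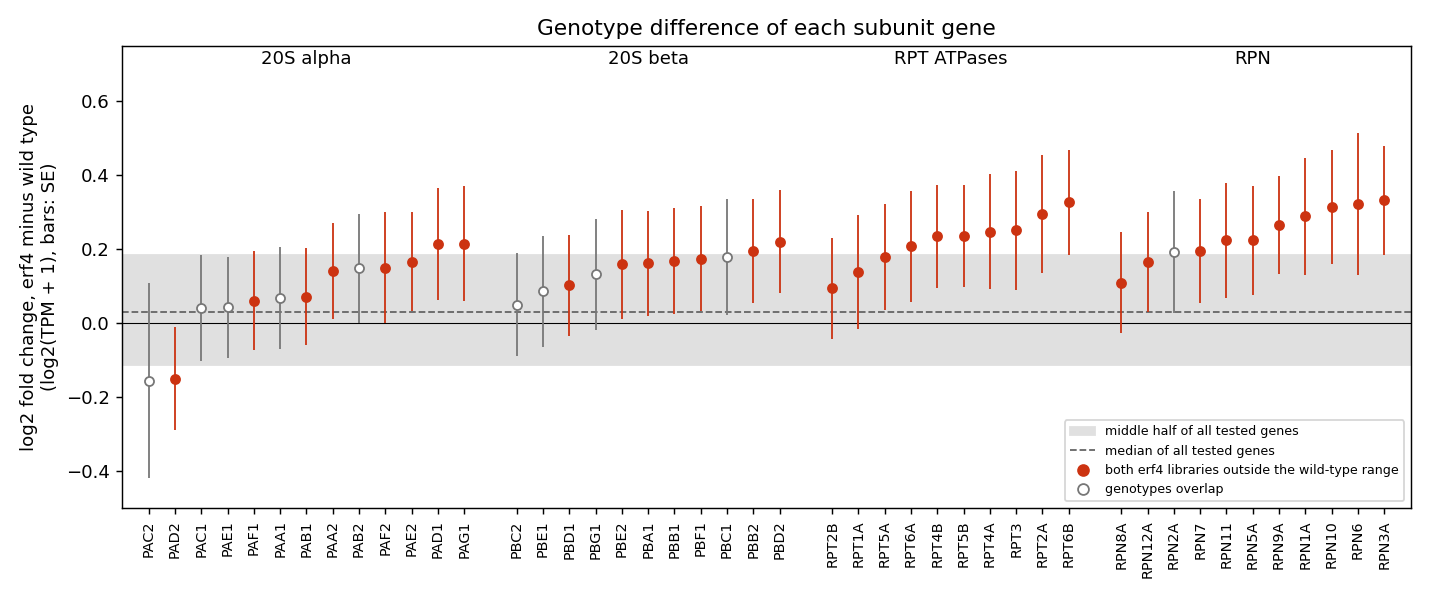
Log2 fold change of each gene from wild type to erf4 on the log2(TPM + 1) scale with its limma SE, by class; filled red points are genes whose erf4 libraries lie outside the wild-type range. The values run from -0.16 to 0.33, with PAC2 and PAD2 below 0, and the grey band spans the middle of all tested genes, from -0.11 to 0.18.

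Genes of the regulatory particle had higher fold changes than core genes as a description of these 4 libraries. The class gap was absent in erf4 1 on the deposited scale. There the median over genes of log2(TPM + 1) minus the gene mean was 0.12 for core genes and 0.10 for RPT and RPN genes. On this measure core genes were at 0.01 in erf4 2, against 0.12 and 0.13. In wild type 2 they were at -0.11, against -0.21 and -0.22. The 21 RPT and RPN genes had a median log2 fold change of 0.23 (range 0.09 to 0.33), and 20 of them lay above the wild-type range. For the 24 core genes the median was 0.14 (range -0.16 to 0.22), with 14 above and 1 below; it was 0.07 for alpha and 0.16 for beta genes. The highest values were those of RPN3A at 0.33 (SE 0.15), RPT6B at 0.33 (SE 0.14), RPN6, a lid scaffold gene, at 0.32 (SE 0.19) and RPN10, a ubiquitin receptor gene, at 0.31 (SE 0.15). For RPN3A the means were 45.4 ± 3.31 TPM in wild-type seeds and 57.4 ± 4.36 TPM in erf4 (SD, n = 2). Leaving out a wild-type library moved RPN6 to 0.10 (without replicate 2) or 0.54 (without replicate 1). For RPN10 the value without wild type replicate 2 was 0.18. The difference between the classes was not tested, since genes are not replicates.

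The difference also rested on single libraries. Wild type 2 was the lowest library for 37 members and an erf4 library the highest for 43. Shares over all tested genes were not counted for these. Within the wild type, 38 members were higher in replicate 1, as were 10807 of the 20804 tested genes. Over all 45 the median difference was 0.14 on the log2 scale, which is close to the median difference between genotypes. Without wild type replicate 2 the median log2 fold change was 0.10, and without wild type replicate 1 it was 0.26. Without erf4 replicate 1 it was 0.14, the same as the median of all tested genes in that comparison (0.14), and after rescaling it was -5.13e-04 with 22 members positive. Without erf4 replicate 2 it was 0.20, against -0.07 for all tested genes.

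**Figure D4:**
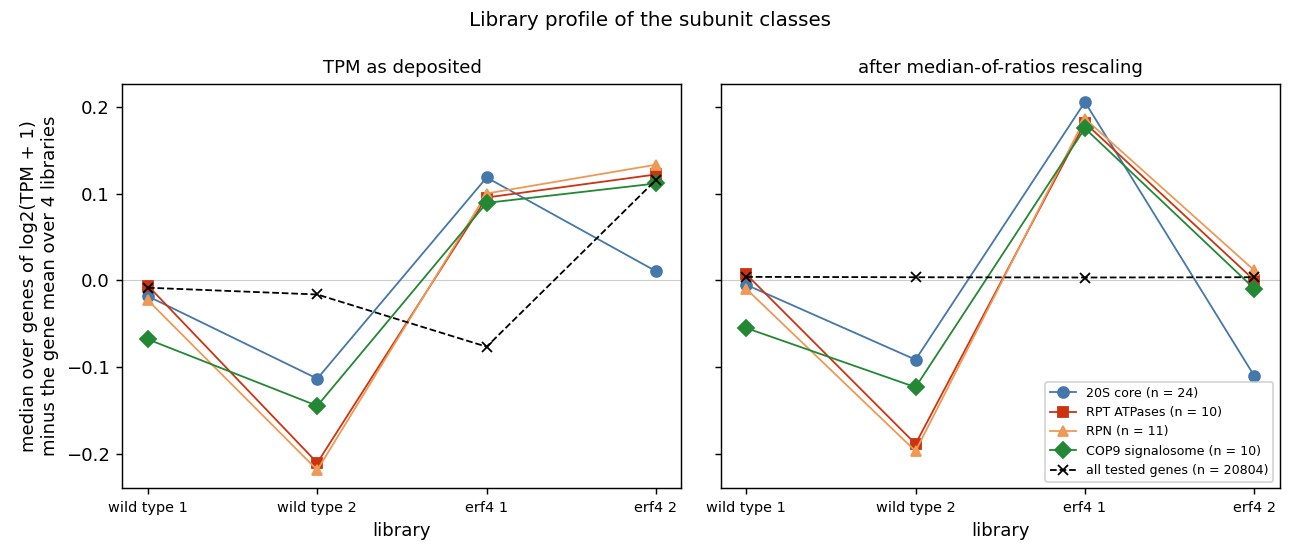
Median over the genes of each class of log2(TPM + 1) minus the gene's mean over the 4 libraries, for the deposited TPM and after rescaling. On the deposited scale RPT and RPN genes are at 0.10 in erf4 1 and at 0.12 and 0.13 in erf4 2. Core genes are at 0.12 in erf4 1 and 0.01 in erf4 2, and all tested genes at 0.12 in erf4 2. After rescaling RPT and RPN genes in erf4 2 are at 2.76e-04 and 0.01 and core genes at -0.11.

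Heat shock genes, named here as signs of handling, also had their lowest level in wild type 2. The summed level of 6 of them was 650 and 139 TPM in wild-type seeds and 1058 and 462 TPM in erf4. HSFA2, a heat shock factor gene, had 40.5 and 4.74 TPM against 75.8 and 28.5, and HSP17.4 had 77.5 and 12.3 TPM against 109 and 27.2. None of the 6 was apart between genotypes. Their part in the member profile was not tested.

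Other genes of the pathway had differences of similar size, and limma called none of them. Of 9 further subunit genes 8 were tested, with 7 positive and 4 above the wild-type range, against 55.9% and 21.5% of tested genes. Their median log2 fold change was 0.17. These counts are on the deposited scale and were not repeated after rescaling. RPN2B, the copy of RPN2A, had 20.2 and 15.8 TPM against 21.4 and 22.9. RPT1B (AT1G53780), annotated as an ATPase of the regulatory complex, differed in profile from RPT1A: it had 80.5 and 105 TPM in wild-type seeds and 58.9 and 115 TPM in erf4, while RPT1A had 132 and 109 TPM against 132 and 132. Its share of the RPT1 sum ranged from 30.9% to 49.0%, the widest of the 22 pairs examined. RPN12B was listed at 0.14 to 0.70 TPM and was not tested.

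Among 6 genes of proteasome regulation and assembly, 5 were positive and 2 above the wild-type range, against 55.9% and 21.5% of tested genes. Their median log2 fold change was 0.14. NAC078, the activator named above, had 70.8 and 54.6 TPM against 83.2 and 72.9, and its relative NAC053 had 14.9 and 16.8 TPM against 12.5 and 18.9. NAC078 was above the wild-type range in both erf4 libraries and NAC053 was not. Of 19 genes that make ubiquitin chains available or deliver and unfold substrates, 17 were positive and 7 above the wild-type range (median 0.14). The shares over all tested genes are again 55.9% and 21.5%. No list was tested against these shares, since genes are not replicates. Counts for these lists are on the deposited scale and were not repeated after rescaling. CDC48B, a segregase gene, had 33.1 and 13.6 TPM against 43.7 and 26.2. Its genotypes overlapped.

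The COP9 signalosome, a complex related to the lid that removes NEDD8 from cullins, likewise had its lowest median level in wild type 2. All 10 of its genes were positive, against 55.9% of tested genes, and 9 were above the wild-type range, against 21.5%. Their median log2 fold change was 0.22, against 0.03 over all tested genes. Both counts are on the deposited scale and were not repeated after rescaling. CSN6B had 16.9 and 17.3 TPM against 25.1 and 20.5, and CSN4 had 34.9 and 30.1 TPM against 32.5 and 38.1. Its genes were less abundant than the members, with a median of 39.1 TPM. No difference between the complexes was tested.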

How the data were processed

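Gene expression was measured by RNA sequencing of seeds, 2 libraries for each of 2 genotypes. The authors deposited TPM per gene, rounded to 2 decimals, together with the mean of each genotype, which entered no test. Per the submitters' processing notes, fastp, HISAT and RSEM were used; versions, roles, build and annotation are not given there. TPM keeps no read depth, so no counting interval is given.

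Members, gene lists and tests were chosen with earlier results of these data known. Genes with at least 1 TPM in at least 2 of the 4 libraries entered a two-sided limma fit (version 3.58.1, R 4.3.3) of log2(TPM + 1) on genotype with a trended variance prior, Benjamini-Hochberg adjustment over all tested genes and a threshold of 0.05, a scale that understates changes of low genes. The fit was tested on simulated data. With 2 libraries a group no exact permutation test of a single gene could pass the threshold, and none was run.

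All 45 loci matched RefSeq TAIR10.1, which gave promoters, coding sequences and annotation. PAB2, PAC2, PBE2, RPT4B, RPT6B, RPN2A, RPN3A, RPN7, RPN9A and RPN11 carry the names usual in the field where RefSeq gives another symbol or none. Coding sequences were aligned globally (Biopython 1.88, longest form of each gene); protein identity was not computed. Genes given in full are the highest and lowest by level and by fold change in each class or list; PAB1, PAF1, PAC1, PAD1, PAD2, PBA1, RPN1A, RPN6, RPN10, RPT1A, RPN12B and the genes apart after rescaling were named after their values were seen. One gene that this rule names is not reported here. Alternatives covered pseudocount, filter, rescaling, variance trend, replicate number as a term, and each library left out.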

Additional observations from a re-analysis of the deposited data

How the results depend on the processing

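Leaving out each library in turn, with and without rescaling, moved the median log2 fold change of the 45 genes between -5.13e-04 and 0.27; the combination with rescaling was chosen after seeing the data. On the deposited scale, with 1 library on a side, 35 to 41 members lay above the wild-type range, where 29.2% to 55.1% of tested genes did, and 1 to 3 below it, where 16.8% to 46.5% did. Limma then called 0 to 8 genes over all tested genes. A lone library is assumed to vary like the other group. Rescaling moved the members above the range from 34 to 10. The cause was not tested. Limma called 44 genes (0.133%) with no filter and 1083 (5.21%) with the replicate number as a block, against 0; no member was called under any of these settings. With the block, 3 members had an unadjusted p under 0.05. The replicate numbers are not said to mark a shared batch; deviations of same-numbered libraries correlated across genes with r = 0.351, which is a hint from the data and not the design. Pseudocounts and filters left the median at 0.17 to 0.18, within replicate spread. The counts of members above and below the range rest on the order of the TPM. Pseudocounts and the variance model cannot change that order, and a filter acts only by dropping members, so these settings do not check the counts. The variance model also cannot change a fold change. The stricter filter (mean of at least 5 TPM) left PAC2 untested. The depth of the libraries is unknown, and members' log2 fold changes of up to 0.33 stood beside SEs of 0.13 to 0.26.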
